A study of Homo sapiens with 6 samples.

Results

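The nuclear-encoded respiratory chain is described here across 6 RNA libraries of HepaRG cells. Its members are the protein-coding genes of the deposited count table whose names begin with NDUF, SDHAF, UQCR, UQCC, COX4 to COX8 or ATP5, together with SDHA, SDHB, SDHC, SDHD and CYC1. This choice by name and biotype took 107 of 58735 genes, or 107 of the 19951 protein-coding genes. They comprise 37 genes of complex I, 4 of complex II, 10 of complex III, 19 of complex IV, 20 of complex V, 15 assembly factors and 2 readthrough genes that join a member to its neighbour. NDUFA4 and its relative NDUFA4L2 were placed in complex IV, where NDUFA4 is known to reside.

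HepaRG is a human liver progenitor line that DMSO turns into mixed cultures of hepatocyte-like and biliary-like cells. Per the labels, cells differentiated in 1.8% DMSO received siRNA for 48 h, and a mixture of 800 µM oleic and 400 µM palmitic acid was then added for 24 h. The siRNAs named in the labels target the transcription factor STAT3, the protein tyrosine phosphatase PTPRD, or both. The label of 3 libraries is PTPF and that of the other 3 is STATF, neither is spelled out, and all 6 share the line, the DMSO, the transfection and the fatty acids. No library with control siRNA was analysed here, so a difference between PTPF and STATF cannot be assigned to either group. STAT3 was measured at 436, 437 and 457 CPM in PTPF and 114, 132 and 113 CPM in STATF, a log2 fold change (log2FC, PTPF over STATF) of 1.89 (SE 0.063, adjusted p = 2.47e-18) in edgeR's quasi-likelihood test. Its 3 STATF libraries lay below the 3 PTPF libraries, and the two-sided exact permutation test gave p = 0.1, the smallest that 3 against 3 allows. PTPRD was measured at 10.04, 12.8 and 11.7 CPM in PTPF and 11.2, 12.2 and 11.1 CPM in STATF, a log2FC of 0.00 (adjusted p = 0.999), so its level did not separate the groups and they are referred to by their labels throughout.

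The respiratory chain sits in the inner mitochondrial membrane. Complex I takes electrons from NADH and complex II from succinate, both pass them through ubiquinone to complex III, cytochrome c carries them to complex IV, and complex V uses the resulting proton gradient to make ATP. Complexes I, III, IV and V have a catalytic core with accessory subunits around it, complex II consists of its core subunits alone, and dedicated assembly factors help to build the complexes. Hepatocytes are rich in mitochondria, and the oxidation of fatty acids feeds this chain through NADH and through the electron-transfer flavoprotein. A few core subunits are encoded in mitochondrial DNA, while complex II is wholly nuclear-encoded.

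The nuclear chain differed little between the groups, by at most 1.31-fold for any called member. Of its 12 lower calls in PTPF, 7 were core subunits as defined below. Of the 107 members, 99 had enough counts to be tested. Of these, 12 were lower in PTPF, 3 were higher and 84 did not pass an adjusted p of 0.05 (edgeR's quasi-likelihood test, Benjamini-Hochberg over 17844 genes). The 15 calls are 15.2% of the members tested, against 21.6% of all genes tested. By direction, 12.1% of the members were lower against 11.6% of all genes, and 3.03% were higher against 10.1% of all genes. Among protein-coding genes of at least 4 on the log2 CPM scale (CPM, read counts scaled by the library's TMM-adjusted total), where most members lie, 32.7% were called, 17.1% lower and 15.6% higher. In this fit the share of lower calls was thus near that of all genes and under that of the abundant genes, and the share of higher calls was under both, with no test of these differences. Without PTPF library 1, or with plain library totals as the scale, the share of lower calls lay above both. The median log2 fold change, PTPF over STATF, was -0.045 over the members and 0.002 over all genes tested. Without PTPF library 2 the median over the members was -0.002, and without STATF library 3 it was -0.022.

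The 3 libraries of each group did not overlap in any of the 15 called members. In all, 17 members lay wholly lower in PTPF and 9 wholly higher, against 18.4% and 17.3% of all genes tested. The 95% interval of the fold change lay within 1.25-fold in either direction for 76 of 99 members (76.8%), against 47.2% of protein-coding genes and 69.0% of those of at least 4 on the log2 CPM scale. For those 76 members the interval leaves room only for a difference of under 1.25-fold on the TMM scale. It does not cover the choice of scale. With plain library totals the median over the members moved from -0.045 to -0.109.

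**Figure D1:**
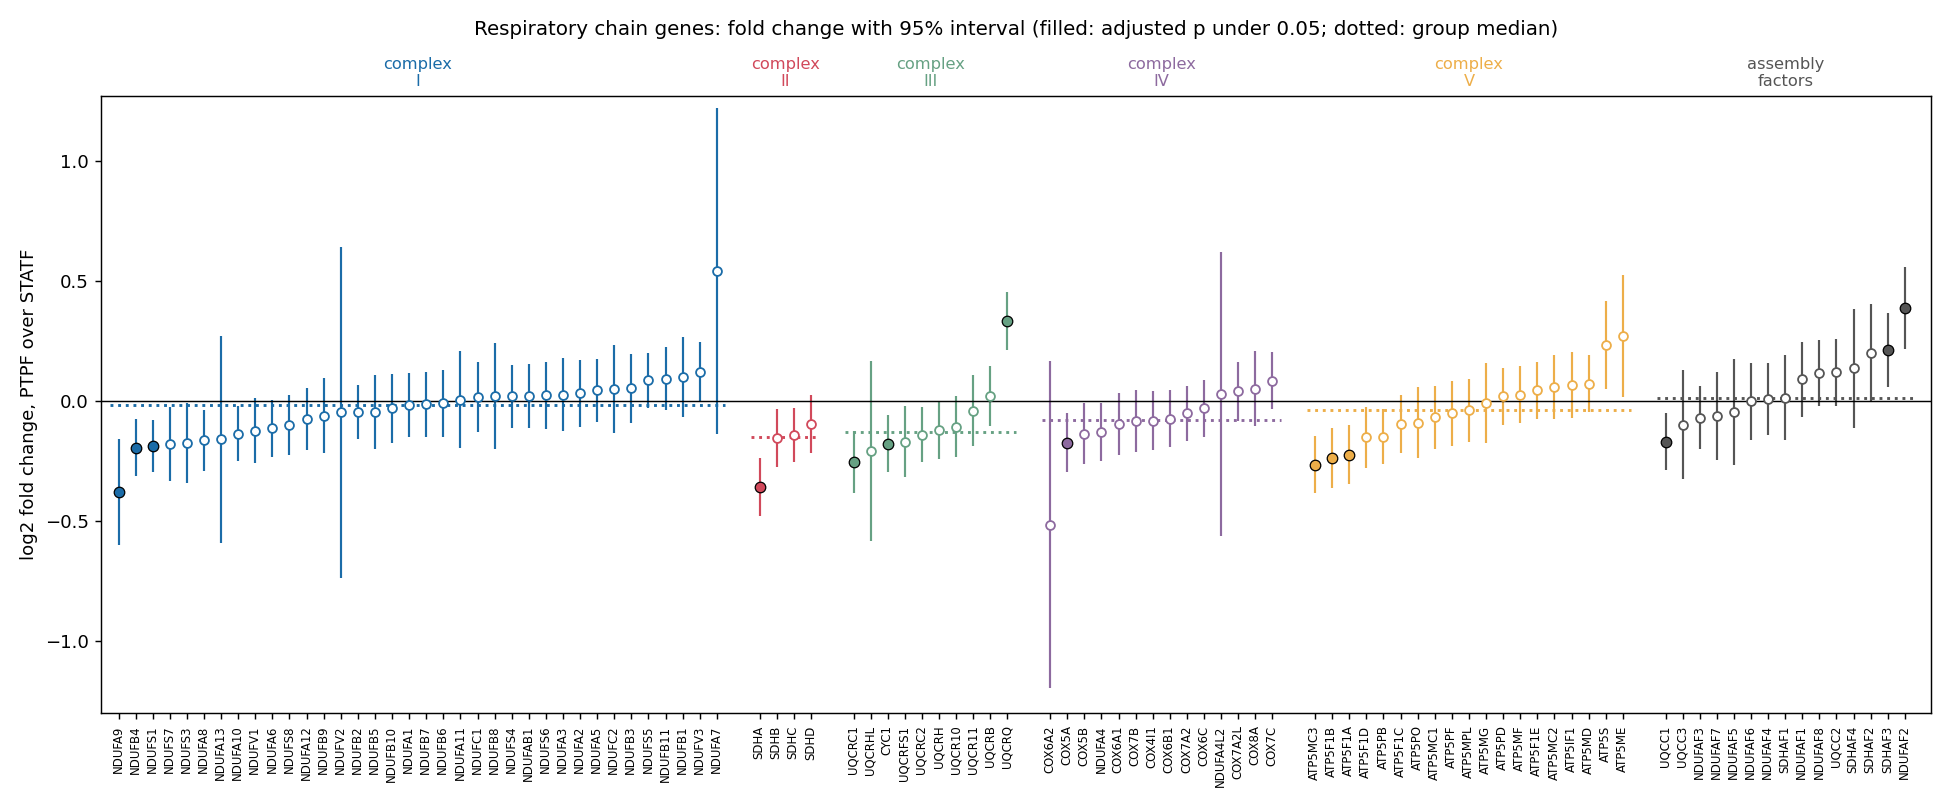
Fold change of the tested members, 1 of them not drawn, grouped by complex; the vertical axis is the fitted log2 fold change, PTPF over STATF, with a point per gene, its 95% interval, filled points for called members and a dotted line at each group's median. The 11 drawn members called lower lie below 0 and are spread over complexes I to V and 1 assembly factor, and the 3 called higher are UQCRQ, NDUFAF2 and SDHAF3.

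Core subunits held 7 of the 11 lower calls among subunits. Counted as core here are the redox, quinone-binding and anchoring subunits of complexes I to III and the head, central stalk and c-ring of complex V. Of 21 core subunits, 7 were lower and 0 higher, with a median of -0.155, and 19 had a negative fold change. DESeq2 and limma-voom gave the same counts, and at an unadjusted p under 0.05 edgeR had 13 lower and 0 higher. At that unadjusted threshold the accessory subunits had 11 lower and 2 higher, and the share of all genes is not given here. Of 57 accessory subunits, 4 were lower and 1 higher, with a median of -0.03. Lower calls were thus 33.3% of core and 7.02% of accessory subunits, against 11.6% of all genes tested and 17.1% of the abundant protein-coding genes. Core subunits were also more abundant, with a median log2 CPM of 6.57 against 5.84 for accessory subunits. Among the 7 core calls, those of CYC1 and NDUFS1 were lost when certain single libraries were left out. Medians by complex were -0.018 for complex I, -0.148 for complex II, -0.131 for complex III, -0.078 for complex IV and -0.039 for complex V. Without PTPF library 2 the complex IV median was -0.031, and without STATF library 3 it was -0.043. The 15 assembly factors had a median of 0.013. Counts and medians are descriptions of the same fit, and the difference between core and accessory subunits was not tested.

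Promoters of called members are printed to show the letters just upstream of genes that moved in opposite directions. RefSeq's GRCh38.p14 table held a promoter for 82 of the 107 members, and the lines give the 250 bases before the RefSeq start, read 5′ to 3′ along the gene. SDHA (chr5:218070-218319, plus strand), NDUFS1 (chr2:206159445-206159694, minus strand) and NDUFB4 (chr3:120596086-120596335, plus strand) were lower in PTPF. UQCRQ (chr5:132866392-132866641, plus strand) and NDUFAF2 (chr5:60944955-60945204, plus strand) were higher in PTPF. Capitals mark CGCATGCG (the NRF1 core) in NDUFB4, CCGGAAG (the core bound by ETS factors such as GABPA) in NDUFS1 and UQCRQ, and CCAAT in NDUFAF2, on either strand. In SDHA they mark 4 copies of the repeat CGCAGGCGC, each with the letters just before it. The repeat was marked in SDHA only, and NDUFB4 also holds it, in small letters. GGGCGG was left unmarked in all lines.
SDHA: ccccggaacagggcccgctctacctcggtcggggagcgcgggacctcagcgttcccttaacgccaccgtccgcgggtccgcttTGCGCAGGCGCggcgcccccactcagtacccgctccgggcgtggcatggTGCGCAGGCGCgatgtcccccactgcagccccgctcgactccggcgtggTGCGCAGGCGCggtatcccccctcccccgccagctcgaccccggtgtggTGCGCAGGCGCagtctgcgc
NDUFS1: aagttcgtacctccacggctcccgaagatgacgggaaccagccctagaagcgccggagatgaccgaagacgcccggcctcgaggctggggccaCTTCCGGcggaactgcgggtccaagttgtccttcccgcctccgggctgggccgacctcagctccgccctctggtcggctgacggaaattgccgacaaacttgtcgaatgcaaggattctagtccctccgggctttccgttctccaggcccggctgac
NDUFB4: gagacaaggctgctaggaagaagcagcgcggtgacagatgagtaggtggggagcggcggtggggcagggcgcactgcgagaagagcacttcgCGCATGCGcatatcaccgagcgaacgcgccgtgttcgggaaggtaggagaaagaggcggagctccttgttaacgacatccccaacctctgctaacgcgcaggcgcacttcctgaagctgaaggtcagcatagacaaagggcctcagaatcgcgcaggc
UQCRQ: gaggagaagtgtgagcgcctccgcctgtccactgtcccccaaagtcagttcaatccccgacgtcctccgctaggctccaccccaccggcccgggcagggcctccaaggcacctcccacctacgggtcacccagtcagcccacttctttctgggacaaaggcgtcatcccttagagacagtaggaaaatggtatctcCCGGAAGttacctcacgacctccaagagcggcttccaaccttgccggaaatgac
NDUFAF2: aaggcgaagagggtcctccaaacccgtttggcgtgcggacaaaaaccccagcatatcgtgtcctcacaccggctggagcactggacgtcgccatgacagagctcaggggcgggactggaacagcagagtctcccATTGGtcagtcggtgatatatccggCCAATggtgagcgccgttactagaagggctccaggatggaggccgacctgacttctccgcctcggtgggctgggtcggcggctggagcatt

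Searched on both strands of the full 300 bases, the 6 letter strings were not all equally common in the members. CGCATGCG was in 13.4% of 82 member promoters against 2.88% of 15842 promoters of protein-coding genes, and its inner part GCATGC, which overlaps it, in 23.2% against 7.97%. CCGGAAG was in 26.8% against 14.2%, and AAGATGG (the YY1 core) in 20.7% against 6.4%. CCAAT was in 32.9% against 36.4%, and GGGCGG (the SP1 core) in 57.3% against 58.5%. Of the 8 members called lower that had a promoter, 1 held CGCATGCG, 1 CCGGAAG, 2 AAGATGG, 0 CCAAT and 4 GGGCGG. Of the 3 called higher, 2 held CCGGAAG, 1 CCAAT and 2 GGGCGG. The same strings were thus present among members that moved and members that did not: of 67 tested and not called, 10 held CGCATGCG and 19 held CCGGAAG. The SDHA repeat was picked after its sequence was seen. At least 1 copy was in 15.9% of member promoters and 5.66% of protein-coding promoters, and 5 protein-coding promoters, that of SDHA included, had at least as many copies.

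Complex II, succinate dehydrogenase, joins the citrate cycle to the chain and held the called member with the smallest adjusted p. SDHA, the flavoprotein that oxidises succinate (ENSG00000073578, chr5:218241-256700, plus strand), was measured at 190.5, 162 and 176 CPM in PTPF and 224, 226 and 229 CPM in STATF. All 3 PTPF libraries lay below all 3 STATF libraries, and the log2FC was -0.36 (SE 0.059, adjusted p = 4.2e-05), 1.28-fold higher in STATF. Pseudogene copies of SDHA exist, and 8.65% of its 50-base windows occur in exons of other genes. SDHB, the iron-sulfur subunit, was measured at 97.9, 83.6 and 86.4 CPM in PTPF and 97.7, 99.6 and 101 CPM in STATF, with a log2FC of -0.15 (adjusted p = 0.0629). PTPF library 1 exceeded STATF library 1, and the other PTPF libraries lay below all of STATF. SDHC, a membrane anchor, was measured at 116, 104 and 112 CPM in PTPF and 124, 119 and 124 CPM in STATF, with a log2FC of -0.14 (adjusted p = 0.0701). The groups of SDHC did not overlap, but the difference did not pass the threshold. SDHD, the other anchor, was measured at 96.0, 87.9 and 86.5 CPM in PTPF and 90.3, 97.2 and 101 CPM in STATF, with a log2FC of -0.10 (adjusted p = 0.277) and overlapping groups. All 4 subunits had a negative fold change. The 4 complex II assembly factors, SDHAF1 to SDHAF4, all had a positive one, with a median of 0.168. SDHAF3, which protects the iron-sulfur subunit during assembly (ENSG00000196636, chr7:97116590-97181763, plus strand), was measured at 19.0, 17.2 and 18.4 CPM in PTPF and 15.3, 15.8 and 15.9 CPM in STATF. Its PTPF libraries all lay higher, with a log2FC of 0.21 (SE 0.075, adjusted p = 0.0422), and this call failed in 9 of 16 alternative analyses. It was lost without PTPF library 1 (adjusted p = 0.116), PTPF library 3 (0.104), STATF library 1 (0.136), STATF library 2 (0.102) or STATF library 3 (0.0771). SDHAF2, which helps attach the flavin to SDHA, had a log2FC of 0.20 (adjusted p = 0.163).

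Complex I, the entry point for NADH, had 4 members lower and 0 higher among 37 tested, also by DESeq2 and by limma-voom. At 10.8%, its share of lower calls was near the 11.6% of all genes tested and under the 17.1% of the abundant protein-coding genes. At an unadjusted p under 0.05, 8 were lower and 0 higher. NDUFS1, the largest iron-sulfur subunit of the NADH-oxidising arm (ENSG00000023228, chr2:206114817-206159603, minus strand), was measured at 113, 111 and 116 CPM in PTPF and 125, 132 and 129.8 CPM in STATF. Its PTPF libraries spanned a narrow range below STATF, with a log2FC of -0.19 (SE 0.053, adjusted p = 0.0107). Without STATF library 2 its adjusted p was 0.086. It shares 11.7% of its exon bases with 3 other genes, and the one that shares most had 0 counts. NDUFB4, an accessory subunit of the membrane arm (ENSG00000065518, chr3:120596309-120602500, plus strand), was measured at 63.0, 56.3 and 61.4 CPM in PTPF and 67.7, 67.6 and 71.4 CPM in STATF. The lowest STATF library lay above the highest PTPF library, with a log2FC of -0.20 (SE 0.058, adjusted p = 0.0159). The call was lost without PTPF library 2 (adjusted p = 0.106) or STATF library 3 (0.095). NDUFA9, an accessory subunit near the quinone site (ENSG00000139180, chr12:4649095-4694317, plus strand), was measured at only 7.07, 6.79 and 5.97 CPM in PTPF and 8.40, 8.33 and 9.09 CPM in STATF. The groups were separate, with a log2FC of -0.38 (SE 0.107, adjusted p = 0.0106). Without PTPF library 3 the adjusted p was 0.0644, and without STATF library 3 it was 0.0605. NDUFA9 shares 67.9% of its coding bases with other genes, of which the one that shares most had 0 counts, so its level is uncertain.

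The 7 core subunits of complex I all had a negative fold change, with a median of -0.174, and 2 of them passed. NDUFS7, an iron-sulfur subunit, had a log2FC of -0.18 (adjusted p = 0.0918), and NDUFS3 had a log2FC of -0.17 (adjusted p = 0.136). NDUFV1, the flavoprotein that oxidises NADH, had a log2FC of -0.12 (adjusted p = 0.196). The 30 accessory subunits were split between 14 negative and 16 positive fold changes, with a median of 0.01. Of the 8 NDUFAF assembly factors, 1 was higher and 0 lower, with a median of 0.004. The share higher was 12.5%, against 10.1% of all genes tested. NDUFAF2, a late assembly chaperone related to NDUFA12 (ENSG00000164182, chr5:60945129-61153037, plus strand), was measured at 15.8, 17.1 and 16.4 CPM in PTPF and 12.2, 11.8 and 13.8 CPM in STATF. Every PTPF library exceeded every STATF library, with a log2FC of 0.39 (SE 0.083, adjusted p = 0.00092), 1.31-fold higher in PTPF and the largest fold among the called members. It shares no exon base with another gene, but 22.0% of its 50-base windows also occur in AC012065.5. NDUFA12 itself had a log2FC of -0.07 (adjusted p = 0.466).

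Complex III held called members in both directions. UQCRC1, a large structural subunit on the matrix side, counted here as accessory (ENSG00000010256, chr3:48599002-48610976, minus strand), was measured at 225, 182 and 207 CPM in PTPF and 247, 241 and 244 CPM in STATF. STATF libraries were tightly grouped above the widely spread PTPF libraries, with a log2FC of -0.25 (SE 0.064, adjusted p = 0.00423). CYC1, the cytochrome c1 that hands electrons to cytochrome c (ENSG00000179091, chr8:144095027-144097525, plus strand), was measured at 153, 143 and 159.5 CPM in PTPF and 171, 165 and 179.9 CPM in STATF. The groups were separate but close, with a log2FC of -0.18 (SE 0.057, adjusted p = 0.0256). The call was lost without PTPF library 2 (adjusted p = 0.129), STATF library 1 (0.0731) or STATF library 3 (0.161). UQCRQ, a small accessory subunit bound near cytochrome b (ENSG00000164405, chr5:132866560-132868031, plus strand), was measured at 136, 122 and 128 CPM in PTPF and 97.7, 99.2 and 109 CPM in STATF. It ran the other way: its lowest PTPF library exceeded its highest STATF library, with a log2FC of 0.33 (SE 0.059, adjusted p = 0.000103), 1.26-fold higher in PTPF. UQCRQ shares 20.8% of its exon bases with GDF9 on the opposite strand, and without a stated strand setting their reads cannot be told apart. GDF9 had 230 counts over the 6 libraries. UQCRFS1, the Rieske iron-sulfur protein, had a log2FC of -0.17 (adjusted p = 0.1), and UQCRC2, the partner of UQCRC1, had a log2FC of -0.14 (adjusted p = 0.0753). Of the 10 members, 8 had a negative fold change. Among the 3 assembly factors, UQCC1, which acts in cytochrome b synthesis (ENSG00000101019, chr20:35302566-35412141, minus strand), was measured at 44.7, 45.8 and 43.5 CPM in PTPF and 49.5, 49.4 and 52.0 CPM in STATF. The PTPF libraries all lay lower, with a log2FC of -0.17 (SE 0.058, adjusted p = 0.0342), and the call failed in 6 of 17 alternatives. Among these were the fits without PTPF library 3 (adjusted p = 0.13), STATF library 1 (0.0738), STATF library 2 (0.0804) and STATF library 3 (0.143). UQCC2, its partner, had a log2FC of 0.12 (adjusted p = 0.242).

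Complex IV, cytochrome c oxidase, had 1 of 14 tested members called. That is 7.14%, under the 21.6% of all genes tested and the 32.7% of the abundant protein-coding genes. COX5A, a nuclear subunit on the matrix side (ENSG00000178741, chr15:74919791-74938168, minus strand), was measured at 81.7, 73.1 and 69.6 CPM in PTPF and 83.5, 87.2 and 82.3 CPM in STATF. PTPF library 1 lay just under the lowest STATF library, and the log2FC was -0.17 (SE 0.06, adjusted p = 0.0398). This call failed in 8 of 17 alternatives, with an adjusted p of 0.0535 in DESeq2. It was lost without PTPF library 2 (adjusted p = 0.105), PTPF library 3 (0.229), STATF library 1 (0.0944), STATF library 2 (0.187) or STATF library 3 (0.0745). COX5B, another nuclear subunit, had a log2FC of -0.14 (adjusted p = 0.12). NDUFA4 was measured at 212, 202 and 206 CPM in PTPF and 209, 229.8 and 240.0 CPM in STATF, with a log2FC of -0.13 (adjusted p = 0.118), and PTPF library 1 exceeded STATF library 1. Of the 11 constitutive nuclear subunits, 9 had a negative fold change and all 11 had an interval within 1.25-fold.

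Complex V, ATP synthase, had 3 lower members of 19 tested, all in its catalytic head or c-ring. That is 15.8%, against 11.6% of all genes tested and 17.1% of the abundant protein-coding genes. ATP5F1B, the catalytic beta subunit (ENSG00000110955, chr12:56638175-56646068, minus strand), was measured at 767, 672 and 701 CPM in PTPF and 824, 847 and 849 CPM in STATF. Its PTPF libraries were all below STATF, with a log2FC of -0.24 (SE 0.061, adjusted p = 0.00506). ATP5F1A, the alpha subunit that alternates with it in the head (ENSG00000152234, chr18:46080248-46104334, minus strand), was measured at 483, 421 and 442 CPM in PTPF and 519.8, 530.4 and 521 CPM in STATF. The pattern was the same, with a log2FC of -0.22 (SE 0.06, adjusted p = 0.00692). ATP5MC3, 1 of 3 genes for the same mature c-ring protein (ENSG00000154518, chr2:175176258-175184607, minus strand), was measured at 214, 192 and 198 CPM in PTPF and 230.5, 246 and 249 CPM in STATF. Its groups did not overlap, with a log2FC of -0.27 (SE 0.058, adjusted p = 0.00108). The other c-ring genes were measured at 65.1, 55.6 and 60.6 CPM in PTPF and 61.7, 60.4 and 67.8 CPM in STATF for ATP5MC1, and at 109.5, 92.4 and 88.7 CPM in PTPF and 92.3, 92.5 and 94.1 CPM in STATF for ATP5MC2. Their log2 fold changes were -0.07 (adjusted p = 0.512) and 0.06 (adjusted p = 0.586), and both had overlapping groups. The 3 central-stalk subunits ran from -0.15 for ATP5F1D to 0.04 for ATP5F1E, with 0 called by edgeR, DESeq2 or limma-voom and 1 at an unadjusted p under 0.05. Of the 9 accessory subunits of the peripheral stalk and membrane part, 0 were called by edgeR, with a median of -0.008, 2 passed an unadjusted p of 0.05, and 1 was lower in DESeq2. ATP5IF1, the inhibitor of ATP hydrolysis, was measured at 41.7, 38.1 and 40.9 CPM in PTPF and 37.5, 35.6 and 42.0 CPM in STATF, with a log2FC of 0.07 (adjusted p = 0.533) and overlapping groups.

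**Figure D2:**
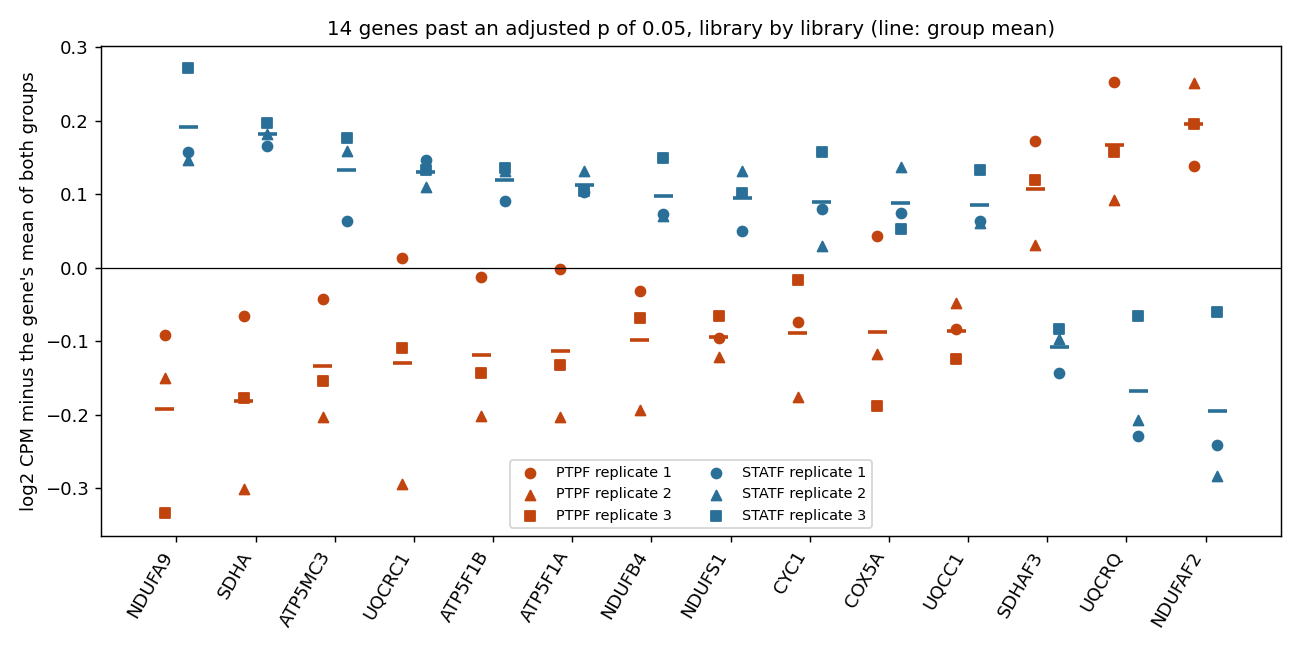
Level of 14 of the 15 called members in each library, as log2 CPM minus the gene's mean of both groups; points are libraries, coloured by group, and short lines are group means. For every gene the PTPF and STATF points are separate, with PTPF below STATF for 11 genes and above it for UQCRQ, NDUFAF2 and SDHAF3.

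The last members inside the threshold were COX5A (log2FC -0.17, adjusted p = 0.0398) and SDHAF3 (log2FC 0.21, adjusted p = 0.0422). The first outside it were ATP5PB, a peripheral-stalk subunit (log2FC -0.15, adjusted p = 0.0564), and NDUFA8, an accessory subunit of complex I (log2FC -0.16, adjusted p = 0.0592). Among all 99 tested, 30 had an unadjusted p under 0.05. Of the 15 calls, 8 held in every alternative that kept the gene, among them ATP5F1A, ATP5F1B, ATP5MC3, NDUFAF2, SDHA, UQCRC1 and UQCRQ.

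The libraries of a group were not alike over the chain. The members' median log2 deviation from each gene's mean was 0.047, -0.078 and -0.039 in PTPF libraries 1 to 3, and -0.003, -0.001 and 0.075 in STATF libraries 1 to 3. PTPF library 1 thus stood above STATF libraries 1 and 2 for the typical member, and STATF library 3 was the highest. Without PTPF library 1, 28 members were lower and 2 higher, so that 28.3% of the members were lower against 11.2% of all genes and 17.9% of the abundant protein-coding genes. Without PTPF library 2, the lowest, 9 were lower and 5 higher, with 9.09% lower against 10.3% of all genes. Without STATF library 3, 7 were lower and 2 higher, with 7.07% lower against 9.08% of all genes. The number of lower members therefore turned on single libraries, while 5 or fewer were higher in each of these fits.

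**Figure D3:**
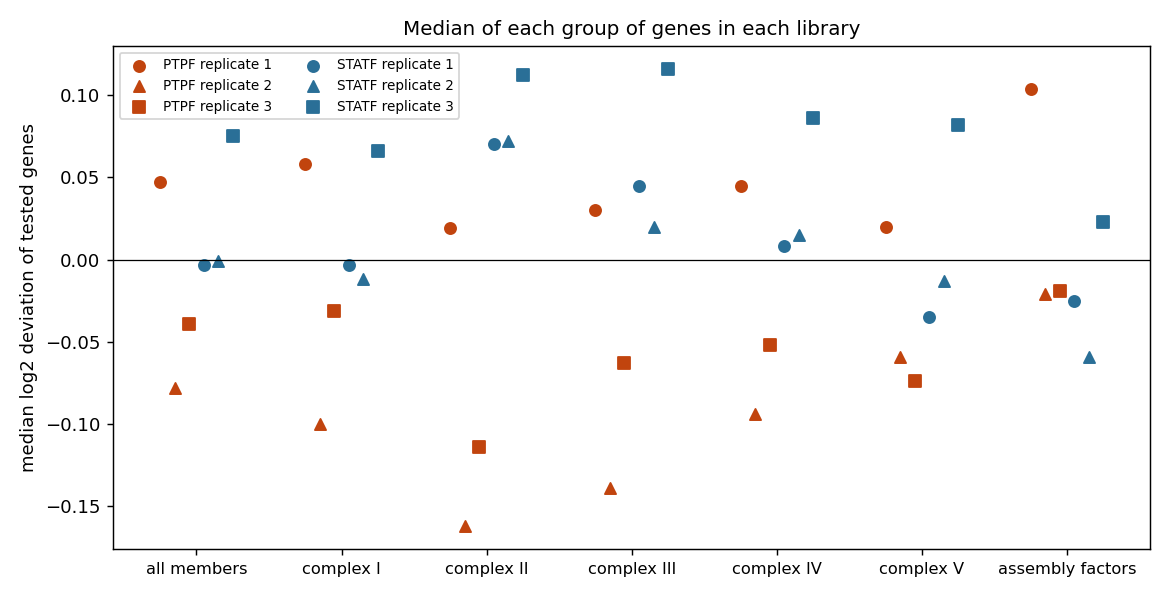
Median log2 deviation from each gene's mean over the 6 libraries, by library, for all members, each complex and the assembly factors; points are libraries, coloured by group. PTPF library 2 has the lowest value or nearly so in each complex, and PTPF library 1 lies near or above the STATF libraries in several.

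Scaling bore on the same count. TMM factors, which set the scale from the bulk of genes, were 0.953 to 0.998 in PTPF and 1.02 to 1.03 in STATF. With plain library totals the median of all genes moved to -0.062, and 32 members were lower and 2 higher. That is 32.3% of the members lower, against 16.7% of all genes and 26.1% of the abundant protein-coding genes. Calls among members were then 94.1% lower, against 80.0% with TMM scaling. The share of counts on mitochondrially encoded genes was 17.6% to 18.5% in PTPF and 18.7% to 19.5% in STATF. With those genes left out of the scaling, 12 members were again lower and 3 higher.

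Levels between members are compared as TPM, counts per kilobase of the deposited gene length scaled to the same total in every library. ATP5F1B was the most abundant, at 752 ± 27.0 TPM in PTPF and 926 ± 8.69 TPM in STATF (SD, n = 3). ATP5F1A, which forms the head with it in equal number, was at 101 ± 3.99 TPM in PTPF and 123 ± 2.70 TPM in STATF, where the deposited length is 10908 bases against 2322 for ATP5F1B. In complex V, ATP5MD, a small membrane subunit, followed at 170.2 TPM, a mean over the 6 libraries as are the levels that follow. The highest members of complex I were NDUFS5 at 383 TPM and NDUFB7 at 159 TPM. Complex II ran from SDHB (96.0 TPM) through SDHD (82.3 TPM) and SDHA (60.3 TPM) to SDHC (20.6 TPM). Complex III was led by CYC1 (206 TPM) and UQCRQ (196 TPM), and complex IV by COX8A (321 TPM) and COX7C (231 TPM). Assembly factors were lower, with a median of 17.6 TPM against 59.4 TPM for tested subunits of complexes I to V. NDUFAF8 (59.2 TPM) and NDUFAF3 (52.1 TPM) were the highest of them, and NDUFAF5 (2.99 TPM) the lowest.

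**Figure D4:**
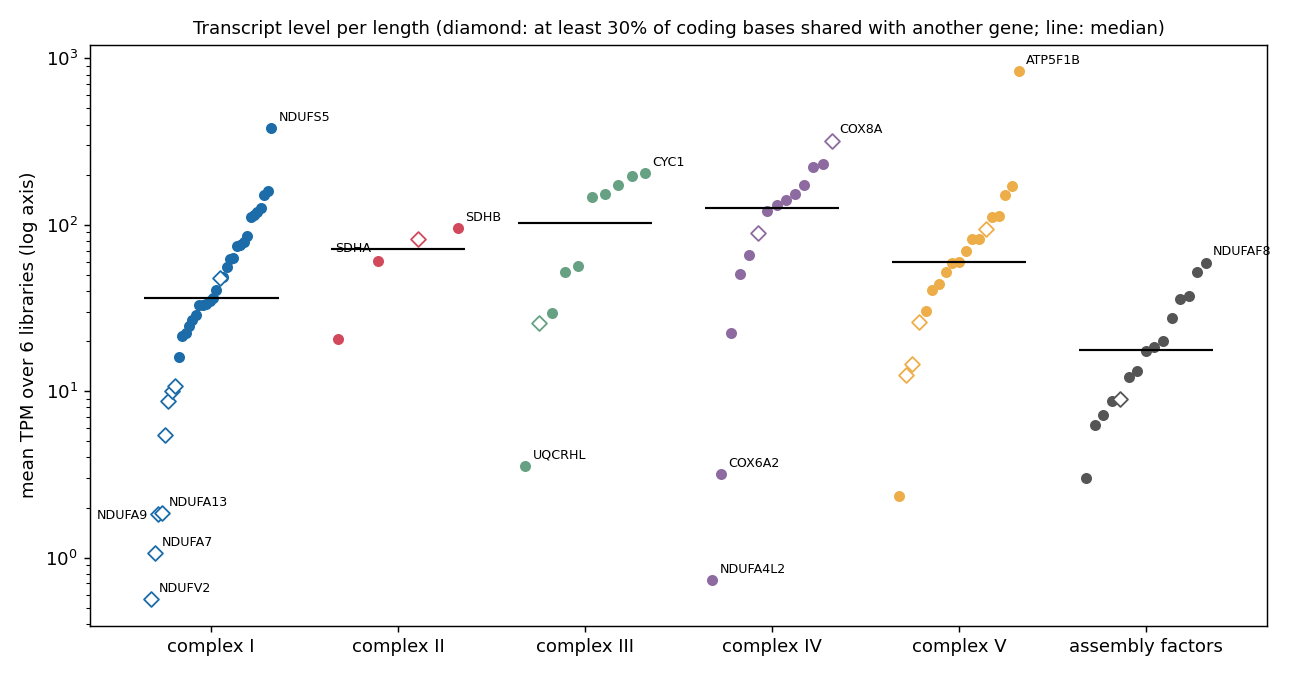
Mean TPM over the 6 libraries of the tested members, 1 of them not drawn, on a log axis, by complex and assembly factors, with diamonds for members that share at least 30% of their coding bases with another gene and lines at the medians. ATP5F1B stands highest at 839 TPM, and several of the lowest members, such as NDUFV2 and NDUFA7, are diamonds.

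Some of the lowest levels lay at genes that overlap another annotated gene. NDUFV2, a core subunit of complex I, was listed at only 0.563 TPM, and 84.7% of its coding bases are shared with AP005263.1. NDUFA7, at 1.07 TPM, shares 78.3%, and NDUFA13, at 1.84 TPM, shares 55.2%. The 21 members that share at least 30% of their coding bases had a median of 11.7 TPM among the 18 tested, against 56.7 TPM for the 81 others tested. How reads that fit more than 1 gene were counted was not stated, so the levels of such members are uncertain. Among the 18, 1 was lower and 0 higher. COX8A and SDHD, which stood high, are also among them, so such an overlap did not always go with a low level. The lowest tested members of the other groups were NDUFA4L2 (0.734 TPM) in complex IV, UQCRHL (3.58 TPM), an intronless copy of UQCRH, in complex III, and ATP5S (2.35 TPM) in complex V.

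Tissue and condition isoforms were at or near 0 beside their constitutive partners. COX4I1 stood at 120.5 TPM, while COX4I2, an isoform tied to low oxygen, had counts of 1, 4 and 4 in PTPF and 0, 0 and 0 in STATF. COX6A1 stood at 88.8 TPM and COX6A2, the heart and muscle form, at 3.17 TPM. COX6B1 stood at 222 TPM, while COX6B2, a testis form, had counts of 1, 1 and 0 in PTPF and 0, 0 and 2 in STATF. COX6B2 shares 100% of its coding bases with AC020922.1 on the same strand, so its level is uncertain. COX7A2 stood at 131 TPM and COX7A2L, a supercomplex factor, at 22.4 TPM, while COX7A1, the heart and muscle form, had counts of 0, 2 and 5 in PTPF and 1, 5 and 2 in STATF. The heart, muscle and low-oxygen forms thus held little of the signal beside their widely expressed partners, while COX7A2L was present at a lower level than COX7A2. The testis form COX6B2 also had few counts, but its overlap leaves that open. COX7B2 had counts of 4, 2 and 0 in PTPF and 2, 3 and 3 in STATF, beside 50.8 TPM for COX7B. COX8C had counts of 5, 4 and 3 in PTPF and 0, 0 and 3 in STATF, beside 321 TPM for COX8A. NDUFA4 stood at 153 TPM against 0.734 TPM for NDUFA4L2, with a log2FC of 0.03 (adjusted p = 0.961). The c-ring genes ATP5MC1, ATP5MC2 and ATP5MC3 stood at 59.2 TPM, 59.5 TPM and 82.0 TPM. The remaining untested members were ATP5MGL, with counts of 0, 5 and 3 in PTPF and 0, 0 and 0 in STATF, and the readthrough genes ATP5MF-PTCD1, with 0, 0 and 3 in PTPF and 5, 0 and 0 in STATF, and NDUFC2-KCTD14, with 0 in all 6 libraries. These readthrough genes share 98.2% and 100% of their coding bases with other genes, so their counts are uncertain too. Where a library shows 0, a true level of 3 counts remains possible. That is 0.0735 to 0.0903 CPM by plain library totals, without the TMM scaling of the other CPM values. Muscle markers (MYH7, CKM, ACTN2 and MYL2) summed to 0.191 to 0.748 CPM, and none was tested.

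The 13 subunits encoded in mitochondrial DNA were called in neither direction by edgeR, with a median of -0.023 and a range of -0.176 to 0.082. At an unadjusted p under 0.05, 2 of them were lower, and DESeq2 called 2 lower and limma-voom 1. MT-ND4L, a membrane subunit of complex I, had the smallest adjusted p, with a log2FC of -0.18 (adjusted p = 0.0527). Of 46 assembly and biogenesis factors outside the naming rule, 3 were lower and 5 higher, with a median of 0.006. The lower calls are 6.52% against 11.6% of all genes tested, and the higher calls 10.9% against 10.1%. The share called, 17.4%, was thus under the 21.6% of all genes. HIGD1A, a small inner-membrane protein that associates with complex IV, was higher with a log2FC of 0.29 (adjusted p = 0.000414), and DMAC1, a complex I assembly factor, was higher with a log2FC of 0.26 (adjusted p = 0.00747). TACO1, a translational activator of mitochondrial COX1, was lower with a log2FC of -0.24 (adjusted p = 0.00733). SCO2, a copper chaperone of complex IV, was lower with a log2FC of -1.50 (adjusted p = 0.000236), but 83.9% of its exon bases are shared. The entry that shares most of them is also named SCO2. No value is given here for that entry, so the value of SCO2 is uncertain.

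In the list of electron carriers and quinone-synthesis genes, 41.7% were called. In the list of citrate-cycle and pyruvate dehydrogenase genes, which also holds PDK, PDP, PC and MPC genes, 51.9% were called. These shares stand beside 14.3% of the chain's own tested subunits, 21.6% of all genes and 32.7% of the abundant protein-coding genes. The differences were not tested. Among 24 electron carriers and quinone-synthesis genes, 7 fell and 3 rose in PTPF relative to STATF, around a median of -0.117. DHODH, which makes pyrimidines and reduces ubiquinone, was measured at 47.6, 44.1 and 52.8 CPM in PTPF and 22.7, 24.1 and 24.5 CPM in STATF. Its groups lay far apart, with a log2FC of 1.02 (SE 0.069, adjusted p = 8.28e-12), higher in PTPF. CHDH, which oxidises choline, was lower with a log2FC of -0.63 (adjusted p = 3.24e-09). COQ8A, a quinone-synthesis factor, was higher with a log2FC of 0.39 (adjusted p = 1.37e-05), and COQ9, another, was lower with a log2FC of -0.31 (adjusted p = 0.000125). For the 27 citrate-cycle and pyruvate dehydrogenase genes, the calls were 10 lower and 4 higher around a median of -0.145. OGDH (log2FC -0.47, adjusted p = 2.97e-07) and CS (log2FC -0.30, adjusted p = 0.000101), enzymes of the cycle, were lower, and IDH2 (log2FC 0.35, adjusted p = 3.64e-05) was higher. SDHA, which belongs to both the cycle and the chain, had a fold change within the range of these lower enzymes.

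Over all genes, 2062 were lower and 1801 higher among 17844 tested, and total counts were 33225627 to 40796767 per library. Hepatocyte markers were high in every library, with a summed level of 39000 to 46050 CPM in PTPF and 36870 to 37900 CPM in STATF; 4 of 8, ALB among them, were lower and 2 higher. SERPINA1, a secreted protease inhibitor, carried the higher sum in PTPF, with a log2FC of 0.71 (adjusted p = 2.42e-08). Without it the hepatocyte sum was 16970 to 20000 CPM in PTPF and 22480 to 23890 CPM in STATF, and CYP3A4, a drug-metabolising enzyme, had a log2FC of -1.34 (adjusted p = 0.00585). Of the 6 biliary and progenitor markers, 5 were tested, 2 were lower and 1 higher, their sum was 299 to 334 CPM in PTPF and 287 to 304 CPM in STATF, and EPCAM was at 0 in all 6 libraries. CD24 carried that sum, with a log2FC of 0.62 (adjusted p = 3.91e-09), and without it the sums were 122 to 134 CPM in PTPF and 166 to 182 CPM in STATF. KRT19, a keratin of biliary cells, had a log2FC of -0.57 (adjusted p = 6.07e-07), and SOX9, a biliary and progenitor transcription factor, had a log2FC of -0.41 (adjusted p = 0.000251). Of the 7 mesenchymal markers, 5 were tested and 1 was lower, with sums of 52.1 to 68.3 CPM in PTPF and 53.9 to 71.9 CPM in STATF; without DCN, the highest of them, the sums were 30.4 to 31.9 CPM in PTPF and 37.9 to 39.3 CPM in STATF. Of the 4 endothelial markers, 2 were tested and KDR was lower, with sums of 33.05 to 39.1 CPM in PTPF and 57.1 to 61.1 CPM in STATF, while CDH5 was at or near 0. Of the 4 immune markers, only CD14 was tested and it was higher, with sums of 12.6 to 15.5 CPM in PTPF and 7.67 to 8.96 CPM in STATF, while CD3E was at 0 and PTPRC at or near 0. The part of these markers, of scaling and of the mitochondrial share in the differences above was not tested, and fewer cells of a type and less RNA per cell cannot be told apart in bulk RNA. The labels do not say that the libraries came from separate cultures, so the p-values speak only of how these 6 libraries vary, which may be technical.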

How the data were processed

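Per the labels' protocols, poly-T-selected RNA of 6 libraries was fragmented and primed with random hexamers before sequencing. CASAVA 1.8 and HISAT2 2.0.5 were used, and genes were counted with featureCounts 1.5.0-p3 on GRCh38, per the submitters' processing notes. The annotation release, strand setting and handling of multi-mapping reads were not given in the sources used here. In 1 table the authors deposited unnormalized counts for each gene, with 0 other columns of per-sample values. The deposited gene length in bases, another unit, served only for TPM. All 58735 gene identifiers are in GENCODE 29, which gave the overlaps.

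Libraries were grouped by title. Genes passing filterByExpr entered a robust quasi-likelihood fit in edgeR 4.0.16 (R 4.3.3), with TMM scaling, the group as its only term and a Benjamini-Hochberg threshold of 0.05. CPM values are TMM-scaled; deviations are of log2(CPM + 0.5). The fit was first tested on simulated data, where 52% of 1.25-fold and 80% of 1.5-fold changes were recovered and 4.62% of calls were false. A member that was not called can thus still differ by a small fold. No library was a duplicate: those of 1 group differed with a chi-square of 4.3 to 12.1 times its degrees of freedom. Total counts were 33225627 to 40796767; floors cover counting error only, as reads without molecular identifiers can be PCR copies.

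Members, roles and lists were chosen with earlier results of these data known. Counts cover all members and list genes, but a few that the rule takes are not reported here by name. Named with every library's value were the other called members, SDHA to SDHD, ATP5IF1 and the c-ring genes; by level, the top 2 and the lowest tested of each group and the isoforms with their partners; the 2 genes on each side of the threshold; and up to 4 called genes per other list. Others were named for their role, after their values were seen. The 17 alternatives comprised other scalings and filters, DESeq2 1.42.0, limma-voom (limma 3.58.1), the replicate number as a block, leaving out each library, an adjusted p of 0.01 and dropping the 67 members whose span overlaps another gene.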

Additional observations from a re-analysis of the deposited data

How the results depend on the processing

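No result turned to the opposite direction while called, and 14 of the 15 called members were called under library totals as well. With library totals as scaling, 32 members were lower, and the median log2 fold change was -0.109 over all members, -0.082 for complex I, -0.143 for complex IV, -0.102 for complex V and -0.051 for assembly factors, against 0.013 for the last with TMM. At an adjusted p of 0.01, 2551 genes were called against 3863, and 6 members were lower and 2 higher. Without members whose span overlaps another gene, which removes members from the count, 6 were lower and 0 higher, and the medians of complexes II and V were -0.258 and -0.096. Leaving out 1 library at a time gave 7 to 28 lower members and 2 to 5 higher ones, and a complex V median of -0.081 to 0.02, the last without PTPF library 2; the complex I median then ran from -0.045 to 0.025, the complex IV median from -0.097 to -0.031, and the median over all members from -0.062 to -0.002, the highest of each again without PTPF library 2. DESeq2 called 12 lower and 2 higher, and limma-voom 12 and 3. The calls of COX5A, CYC1, NDUFA9, NDUFB4, NDUFS1, SDHAF3 and UQCC1 failed in at least 1 alternative. For COX5A, adjusted p ran from 0.00119 to 0.229, and for SDHAF3 from 0.0245 to 0.167; DESeq2 gave 0.0535 and 0.0661. Beyond what the construction of an alternative shows, the cause was not tested. With the replicate number as a block, 16 members were lower, 3 were higher and the median was -0.039. Same-numbered libraries correlated in their deviations at 0.0347, 0.0578 and 0.000769. PTPF library 1 correlated nearly as well with STATF library 3 (0.0332) as with its own number. PTPF library 2 correlated best with its own number, and PTPF library 3 did not. Over all pairs the values ran only from -0.0699 to 0.0578. Deviations were centred within each group, so these values cannot decide whether a number marks a shared batch. Members of few counts, such as NDUFV2 and NDUFA7, had wide intervals. These also share 84.7% and 78.3% of their coding bases with other genes, and what keeps their counts low was not tested.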

Other observations

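Of 20 regulators of mitochondrial gene expression, which no comparison above uses, 3 fell and 4 rose in PTPF relative to STATF, and the median log2 fold change was 0.056. The share called was 35.0%, beside 21.6% of all genes tested and 32.7% of protein-coding genes of at least 4 on the log2 CPM scale. PPARGC1A, a coactivator of mitochondrial biogenesis, was measured at 26.2, 28.3 and 28.7 CPM in PTPF and 37.2, 39.6 and 38.5 CPM in STATF. Its groups did not overlap, with a log2 fold change of -0.47 (SE 0.064, adjusted p = 2.55e-06) in edgeR's quasi-likelihood test. ESRRG, a nuclear receptor that PPARGC1A can coactivate, was lower with a log2 fold change of -1.02 (adjusted p = 9.93e-05). PPRC1, a relative of PPARGC1A, was higher with a log2 fold change of 0.36 (adjusted p = 0.000224), and TWNK, the helicase of mitochondrial DNA, was higher with a log2 fold change of 0.38 (adjusted p = 0.000378). NRF1 had a log2 fold change of 0.17 (adjusted p = 0.215), GABPA 0.09 (adjusted p = 0.394) and YY1 0.00 (adjusted p = 0.974), and none of these 3 passed.

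Of 12 tested mitochondrial carriers and pores among 14 listed, 5 were lower and 0 higher, also by DESeq2 and limma-voom, with a median of -0.156; at an unadjusted p under 0.05, 7 were lower and 0 higher. The 41.7% called lower stand beside 11.6% of all genes tested and 17.1% of the abundant protein-coding genes, with no test of the difference. SLC25A4, an ADP/ATP carrier, was measured at 67.8, 58.9 and 62.2 CPM in PTPF and 82.0, 82.9 and 80.7 CPM in STATF. The PTPF libraries all lay lower, with a log2 fold change of -0.38 (SE 0.058, adjusted p = 1.8e-05). SLC25A11, which exchanges oxoglutarate and malate, was lower with a log2 fold change of -0.27 (adjusted p = 0.000599), VDAC2, an outer-membrane pore, with a log2 fold change of -0.20 (adjusted p = 0.0111), and SLC25A13, an aspartate and glutamate carrier, with a log2 fold change of -0.18 (adjusted p = 0.0209). Among the other ADP/ATP carriers, SLC25A5 had a log2 fold change of -0.16 (adjusted p = 0.0685) and SLC25A6 had a log2 fold change of -0.01 (adjusted p = 0.949). UCP1 and UCP2, uncoupling proteins, were at or near 0.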
